A study of Mus musculus with 4 samples.

Results

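In 392 genes, 1.66% of the 23631 genes with a promoter count, acetylated histone H3 was measured at several distinct RefSeq promoters of clearly unequal strength. The table of promoter counts holds 1 row per RefSeq transcript ID, and 4235 genes had 2 or more IDs. IDs of a gene with the same count in every library were treated as 1 promoter. IDs with nearly the same counts stayed separate, although their windows may overlap and share reads. A gene was taken when at least 2 of its distinct promoters had a mean raw count of 50 or more over the 4 libraries and differed at least 2-fold in mean count. For each gene the strongest promoter is called the stronger one, and the weakest with a mean count of 50 or more is called the weaker one. The genes were thus chosen by their mean counts, and the strength of the promoters relative to each other is given below as a description only.

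Chromatin was immunoprecipitated with an antibody against acetyl-histone H3 from the left ventricle of C57BL6 mice, all male and 10 to 12 weeks of age, after transverse aortic constriction (TAC), which loads the left ventricle with pressure, or after sham surgery. For 4 weeks the mice were injected subcutaneously 2 times a day with trichostatin A (TSA, 0.6 mg per kg per day), an inhibitor of histone deacetylases that was dissolved in DMSO, or with DMSO alone (Veh). The groups are TAC TSA, TAC Veh, Sham TSA and Sham Veh, and each has 1 library. The labels do not say how many ventricles went into a library. No value has a replicate, so no difference between a pair of libraries carries a p-value, and each interval covers counting error only.

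Many mammalian genes start transcription at more than 1 place. An alternative promoter can give a protein another first stretch of amino acids, or put the same protein under the control of another tissue or signal. Acetylation of histone H3 opens chromatin and marks promoters that are in use, and promoters rich in CpG, the dinucleotide at which mammalian DNA is methylated, often carry it in many tissues, whereas CpG-poor promoters tend to be specific to a tissue.

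The genome sequence shows how unlike the starts of 1 gene can be. Starts of Runx1, Mb and Kat2b, genes whose promoters diverged between libraries, are printed from RefSeq's GRCm38.p6 annotation, as 300 bases from 250 before to 50 after the start, with CpG in capitals. The count table gives no coordinates, so a start cannot be assigned to the weaker or the stronger promoter. Runx1 encodes a transcription factor of blood formation and has a distal and a proximal promoter. Its distal start, chr16:92826025-92826324 on the minus strand, has 2 CpG, an observed-to-expected ratio of 0.14. Its proximal start, chr16:92697280-92697579 on the minus strand and 128745 bp downstream, has 35 CpG, a ratio of 1.01. Mb encodes myoglobin, the oxygen-binding protein of heart and muscle. Its upstream start, chr15:77050619-77050918 on the minus strand, has 9 CpG. Its downstream start, chr15:77022738-77023037 on the minus strand and 27881 bp away, has 1 CpG. Kat2b encodes an acetyltransferase of histones. Its upstream start, chr17:53566721-53567020 on the plus strand, has 11 CpG. Its downstream start, chr17:53583876-53584175 on the plus strand and 17155 bp away, has 6 CpG.
Runx1 distal start: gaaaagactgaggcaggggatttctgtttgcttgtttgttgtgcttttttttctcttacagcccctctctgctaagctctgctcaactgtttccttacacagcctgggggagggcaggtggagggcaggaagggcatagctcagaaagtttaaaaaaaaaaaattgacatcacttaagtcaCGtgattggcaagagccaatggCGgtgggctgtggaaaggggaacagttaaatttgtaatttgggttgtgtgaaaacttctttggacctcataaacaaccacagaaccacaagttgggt
Runx1 proximal start: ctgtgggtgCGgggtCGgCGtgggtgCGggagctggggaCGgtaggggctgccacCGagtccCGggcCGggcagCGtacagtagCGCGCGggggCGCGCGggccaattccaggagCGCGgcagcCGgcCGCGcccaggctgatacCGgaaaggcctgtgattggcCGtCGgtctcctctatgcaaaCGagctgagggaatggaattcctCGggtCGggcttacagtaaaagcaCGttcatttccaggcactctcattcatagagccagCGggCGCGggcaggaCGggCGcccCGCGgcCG
Mb upstream start: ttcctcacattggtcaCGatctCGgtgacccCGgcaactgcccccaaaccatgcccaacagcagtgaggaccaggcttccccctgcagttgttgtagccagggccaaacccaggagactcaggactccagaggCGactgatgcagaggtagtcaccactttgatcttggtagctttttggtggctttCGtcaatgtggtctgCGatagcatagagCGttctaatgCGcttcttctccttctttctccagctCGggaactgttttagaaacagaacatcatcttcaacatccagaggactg
Mb downstream start: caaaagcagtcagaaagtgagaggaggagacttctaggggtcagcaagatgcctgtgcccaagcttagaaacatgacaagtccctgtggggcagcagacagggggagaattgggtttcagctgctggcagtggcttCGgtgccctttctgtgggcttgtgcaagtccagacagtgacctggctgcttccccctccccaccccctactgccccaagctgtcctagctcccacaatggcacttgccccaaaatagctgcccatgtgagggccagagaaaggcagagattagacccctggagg
Kat2b upstream start: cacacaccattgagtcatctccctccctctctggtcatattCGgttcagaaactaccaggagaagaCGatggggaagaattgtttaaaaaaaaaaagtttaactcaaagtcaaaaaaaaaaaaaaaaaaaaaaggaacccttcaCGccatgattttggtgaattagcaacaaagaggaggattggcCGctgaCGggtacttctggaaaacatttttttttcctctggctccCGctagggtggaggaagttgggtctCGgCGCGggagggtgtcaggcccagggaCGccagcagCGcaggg
Kat2b downstream start: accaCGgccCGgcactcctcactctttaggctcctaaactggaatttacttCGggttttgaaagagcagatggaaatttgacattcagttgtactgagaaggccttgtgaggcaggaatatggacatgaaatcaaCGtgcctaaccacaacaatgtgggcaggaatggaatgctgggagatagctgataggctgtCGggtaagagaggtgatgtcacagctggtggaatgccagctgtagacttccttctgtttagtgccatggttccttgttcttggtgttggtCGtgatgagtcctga
The letters TATAAA, searched on both strands, are in none of these windows and in 13.6% of all 32851 annotated windows of this length. The letters CCAAT, on either strand, are in 37.4% of all windows and occur 2 times at each Runx1 start, once at each Mb start and once at the upstream Kat2b start. A match or its absence describes these letters only.

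The contrast within Runx1 was common among the 392 genes. RefSeq's start table matched 344 of them, and 288 had 2 or more starts. The farthest starts of a gene lay a median of 27201 bp apart, and 97.2% of these genes had starts at least 1000 bp apart. Genes whose promoters differed under 2-fold in count had a median of 1016.5 bp over 886 genes, and 50.2% of them reached 1000 bp. A CpG-rich start (observed-to-expected ratio of 0.6 or more) together with a CpG-poor one (under 0.4) occurred in 183 (63.5%) of the 288 genes, against 208 (23.5%) of those 886 genes. Close starts may share reads and so have near-equal counts, which the 2-fold rule leaves out. Both contrasts may thus follow from the choice of genes and are given as a description.

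Total promoter counts were 6842296 in TAC TSA, 8873302 in TAC Veh, 9905553 in Sham TSA and 9612616 in Sham Veh. All 10 cardiomyocyte markers, such as Myh6 and Tnnt2, had counts in every library, the lowest being 232, 171, 321 and 279 in that order of groups. Their summed level after library scaling was 4564 in TAC TSA, 2719 in TAC Veh, 4621 in Sham TSA and 3973 in Sham Veh. The 19 leukocyte markers summed to 2748, 3437, 3306 and 2882, the 35 matrix and fibroblast genes to 11542, 13632, 11518 and 11832, and the 16 endothelial markers to 8676, 8726, 9209 and 9520, in the same order. In whole tissue, fewer cells of a type and less signal per cell cannot be told apart. Olfactory and vomeronasal receptor promoters, silent in heart, held 0.617% of the counts of all distinct promoters in TAC TSA. They held 0.460% in TAC Veh, 0.388% in Sham TSA and 0.383% in Sham Veh. The TAC TSA library was the shallowest and had the largest receptor share. This share is called the receptor background below. Whether it is technical or is acetylation at these promoters was not tested. An earlier deposit is cited in the labels of the sham libraries but not in those of the TAC libraries, so surgery and a possible batch cannot be told apart.

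The 392 genes held 974 distinct promoters, of which 961 had a mean count of 50 or more and 13, in 9 genes, were below it. Most genes (266) had 2 such promoters, 93 had 3 and 33 had 4 or more. The weaker promoter had a median mean count of 109.625 and the stronger one 438.25, and the median ratio between them was 3.33-fold. In 89 genes the ratio was 5-fold or more, and in 97 it was under 2.5-fold. Of the genes, 390 code for protein. Near the 2-fold limit lay Pth1r, the parathyroid hormone receptor, at 127.5 for the weaker promoter and 255 for the stronger, and Mcf2l, at 170.25 and 341.5. Just outside were Ttll3, at 130 and 259, and Gm20139, at 61.25 and 122.

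The widest ratios were those of Sgk1, Pfkfb2, Ncor1, Crem and Rhobtb1. Sgk1, a kinase induced by glucocorticoids that regulates ion transport, had a mean of 53.5 counts at the weaker and 945.25 at the stronger promoter, a 17.7-fold ratio. Pfkfb2, the heart form of the enzyme that sets the level of the glycolytic activator fructose bisphosphate, had a 13.2-fold ratio. Ncor1, a corepressor that recruits histone deacetylases to nuclear receptors, had a 12.0-fold ratio. Crem, a cyclic AMP-responsive transcription factor with an internal promoter that makes a short repressor, had an 11.2-fold ratio. Rhobtb1 had a 10.7-fold ratio.

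**Figure D1:**
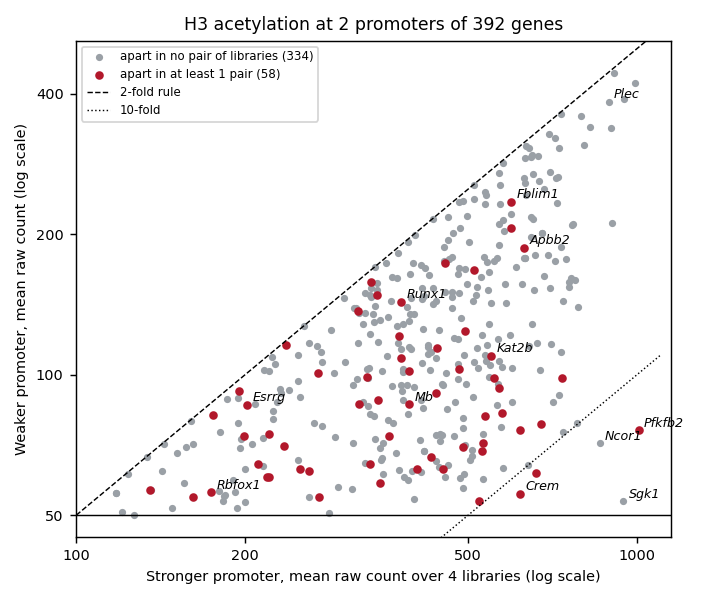
Mean raw count of the weaker promoter (y axis, log scale) against the stronger promoter (x axis, log scale) for 392 genes, each point 1 gene. The dashed line is the 2-fold rule and the horizontal line the minimum of 50; the 58 genes apart in at least 1 pair of libraries, in red, lie mostly at low counts of the weaker promoter.

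In no gene did the weaker promoter reach the count of the stronger one in any library, which the rule nearly fixes, since it chose the genes on the mean counts of these libraries. The weaker promoter's share of both counts had a median of 24.8% in TAC TSA, 22.3% in TAC Veh, 22.9% in Sham TSA and 22.8% in Sham Veh. Within a gene this share spanned a median of 4.46 percentage points over the libraries; 227 genes stayed within 5 points and 14 spanned more than 10, the widest being Rbfox1 with 18.0 points. Across the genes, which are not independent and share each library's depth, the log2 ratio of weaker to stronger promoter correlated between libraries with Pearson's r of 0.895 to 0.932 (n = 392 genes); these are the counts that chose the genes.

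The shares of the genes with most promoters are given as a description. Where windows overlap, the same reads can enter a gene's total at several of its promoters. Plec encodes plectin, which links intermediate filaments to other cytoskeletal parts and is known for its many first exons. Its 11 promoters ranged from 12.6% of the gene's counts at the strongest to 5.76% at the weakest in TAC TSA, 12.4% to 5.23% in TAC Veh, 13.1% to 5.44% in Sham TSA and 12.5% to 5.47% in Sham Veh. Sgk1 held most of its counts at 3 of its 6 promoters, and the strongest had 33.3% in TAC TSA, 33.5% in TAC Veh, 34.2% in Sham TSA and 32.8% in Sham Veh. Bdnf, a neurotrophin, gave its weakest of 6 promoters 7.24% in TAC TSA, 6.62% in TAC Veh, 6.87% in Sham TSA and 4.58% in Sham Veh. Tgif1, a homeobox repressor of TGF-beta signalling, gave its strongest promoter 26.8%, 26.9%, 26.4% and 26.4% in that order of libraries. Slc29a1, a nucleoside transporter, gave its weakest of 5 promoters 7.94%, 7.92%, 7.48% and 7.71%.

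**Figure D2:**
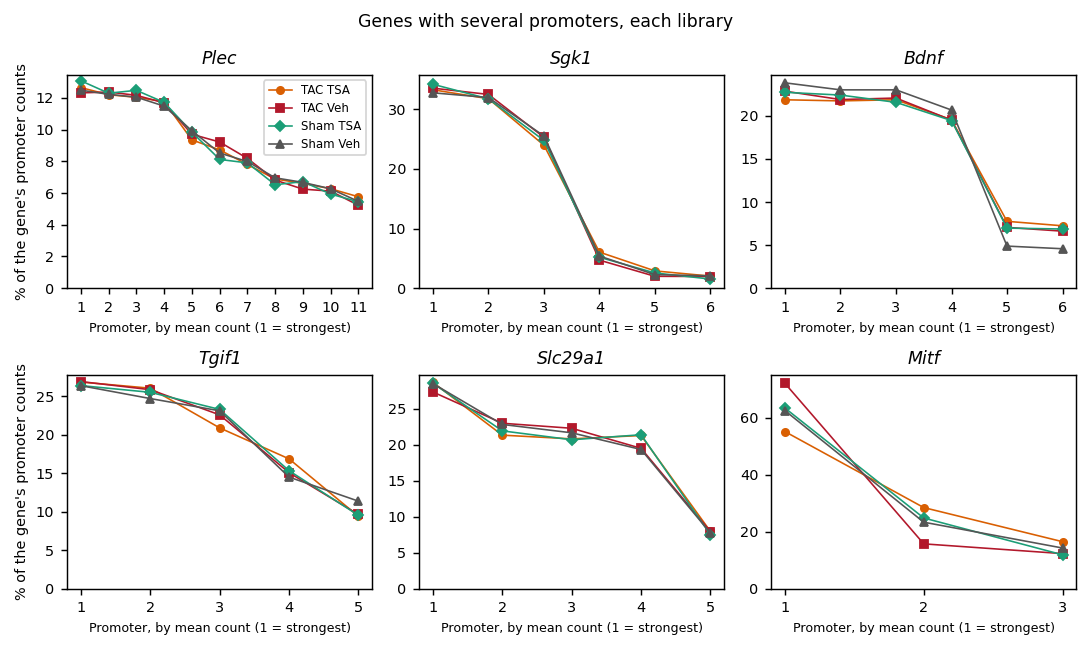
Share of each gene's promoter counts (y axis, percent) at its promoters, ordered by mean count (x axis, 1 is the strongest), in the 4 libraries. The lines nearly coincide for Plec, Sgk1 and Slc29a1, whereas the first 2 promoters of Mitf diverge in the TAC Veh library.

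The strongest promoter was the same ID in all 4 libraries in 373 genes. For the 266 genes with 2 promoters of mean count 50 or more, the 2-fold rule nearly fixes this. A change of lead was open mainly to genes with 3 or more such promoters, so 373 does not measure stability. In 17 of the other 19 genes the leading promoters differed by less than 5% in mean count. Eml1, a microtubule-binding protein, was 1 of the 2 exceptions. Its second promoter (NM_001043335) had 280 counts in TAC TSA, 437 in TAC Veh, 429 in Sham TSA and 422 in Sham Veh. Its first promoter (NM_001286346) had 404, 395, 579 and 562, so the second led in TAC Veh alone. The log2 change of second over first promoter was −0.67 in TAC TSA over TAC Veh (95% interval −0.98 to −0.37) and 0.56 in TAC Veh over Sham Veh (0.28 to 0.83). In Dock9, an exchange factor for Cdc42 and 1 of those 17 genes, the second promoter (NM_001081039) had 330 counts in TAC TSA, 405 in TAC Veh, 533 in Sham TSA and 555 in Sham Veh. Its first promoter (NM_134074) had 368, 503, 488 and 493. The first led in both TAC libraries and the second in both sham libraries, with a log2 change of −0.48 in TAC Veh over Sham Veh (−0.75 to −0.22) and −0.28 in TAC TSA over Sham TSA (−0.57 to 0.00). The other exception, Chn1, a Rac-inactivating protein, was chosen after its values were seen. Its second promoter (NM_001113246) had 133, 153, 143 and 138 counts and its first (NM_001166604) 111, 179, 192 and 163, so the second led in TAC TSA alone, with a log2 change of 0.69 in TAC TSA over Sham TSA (0.19 to 1.19).

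Promoter use was compared as the log2 change, between a pair of libraries, of the ratio of weaker to stronger promoter. This ratio needs no scaling for depth. Use here means acetylation counts at 1 promoter relative to another, and transcription from the promoters was not measured. A gene was counted as apart when it differed at least 1.5-fold and the interval excluded 1. By this rule 58 genes (14.8%) were apart in at least 1 of the 4 pairs and 334 in none. The share apart in any pair was not counted over genes outside the 392, so 14.8% describes these genes only. Shares over more genes are given below for each pair. Of the 58, 22 were also apart in the same direction after a loess scaling that removes any trend of the change with the count. The comparisons share libraries, so their counts are not independent.

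For pressure overload under vehicle, TAC Veh was set against Sham Veh. The weaker promoter was higher relative to the stronger one in 6 genes and lower in 7. The background, the share past the same rule among all 1644 genes with at least 2 promoters of mean count 50 or more, was 0.912% higher and 0.791% lower. The 6 and 7 genes are 1.53% and 1.79% of the 392, against 9 (0.719%) and 6 (0.479%) of the 1252 genes under 2-fold. Those 1252 genes had a median ratio of 1.04 between their promoters. Near-equal counts may come from windows that overlap, whose ratio can hardly move between libraries. The background over the 1644 genes includes these genes, so neither share, here or below, measures whether the 392 shift more often. The median change over the 392 genes was −0.03. All 7 lower genes and 3 of the 6 higher ones were also apart with loess scaling.

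Runx1, Esrrg, Crem and Jazf1 were 4 of the 7 lower genes. The weaker promoter of Runx1 (NM_001111021) had 100 counts in TAC TSA, 142 in TAC Veh, 168 in Sham TSA and 163 in Sham Veh. The stronger promoter of Runx1 (NM_001111023) had 216, 541, 395 and 367. The stronger one was highest in TAC Veh and lowest in TAC TSA, and the weaker one's share was 31.6% in TAC TSA, 20.8% in TAC Veh, 29.8% in Sham TSA and 30.8% in Sham Veh. In TAC Veh over Sham Veh the change in use was −0.76 (95% interval −1.15 to −0.37). After library scaling, the level of the stronger promoter differed by 0.65 on the log2 scale (0.46 to 0.85) and that of the weaker one by −0.11 (−0.44 to 0.23). The leukocyte markers had their highest summed level in TAC Veh as well (3437), and their part in the Runx1 result was not tested. Esrrg encodes an orphan nuclear receptor that drives genes of mitochondrial energy production, and here the weaker promoter differed instead. Its weaker promoter (NM_011935) had 80, 56, 115 and 94 counts, and its stronger promoter (NM_001243792) 165, 195, 246 and 200, in the same order of libraries. The change in use was −0.71 (−1.30 to −0.13), with a level change of −0.65 (−1.16 to −0.16) at the weaker and 0.06 (−0.24 to 0.35) at the stronger promoter. Crem had 57, 36, 68 and 61 counts at the weaker promoter (NM_001110853) and 427, 661, 686 and 704 at the stronger one (NM_001110851). Its change was −0.67 (−1.33 to −0.03), and TAC Veh had the lowest count of the weaker promoter. With the second of its 4 promoters by count (NM_001110854) in place of the weakest, the change was −0.21 (−0.50 to 0.08) and not apart. Jazf1, a zinc-finger cofactor of transcription, had 77, 71, 113 and 109 counts at the weaker promoter and 166, 214, 215 and 184 at the stronger one. The lower weaker counts in both TAC libraries are not scaled for depth, and TAC TSA was the shallowest library. The change in TAC Veh over Sham Veh was −0.84 (−1.38 to −0.30).

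The other lower genes were St6gal1, Cdkn2a and Tbc1d5. St6gal1 encodes the enzyme that adds sialic acid to N-glycans, and had 70, 58, 83 and 94 counts at the weaker promoter in TAC TSA, TAC Veh, Sham TSA and Sham Veh, with a change of −0.66 (−1.19 to −0.15). Cdkn2a makes the cell cycle inhibitors p16Ink4a and p19Arf from separate promoters, and had 38, 45, 73 and 63 counts at the weaker promoter, with a change of −0.65 (−1.28 to −0.02). Tbc1d5, a Rab7-inactivating protein of endosome traffic, had 52, 45, 52 and 66 counts at the weaker promoter, with a change of −0.62 (−1.23 to −0.02). The last 2 intervals end close to 0.

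The 6 higher genes were Mb, Pde2a, Pfkfb2, Kcnd3, Ppfibp2 and Phactr3. Mb had 100 counts in TAC TSA, 85 in TAC Veh, 81 in Sham TSA and 80 in Sham Veh at the weaker promoter (NM_013593). The stronger Mb promoter (NM_001164048) had 373, 272, 484 and 441 counts. The weaker count lay between 80 and 100 and the stronger one was lowest in TAC Veh, with a change in use of 0.78 (0.27 to 1.30) in TAC Veh over Sham Veh and a level change of −0.60 (−0.83 to −0.38) at the stronger promoter. The remaining Mb promoter (NM_001164047) followed the stronger one, with 365, 268, 480 and 443 counts, though the windows of both may overlap and share reads. The summed level of the cardiomyocyte markers was lowest in the same library; its part in the Mb result was not tested. Pde2a, a phosphodiesterase of cyclic AMP and cyclic GMP, had 87, 108, 113 and 86 counts at the weaker promoter and 457, 497, 602 and 669 at the stronger one. Its change was 0.76 (0.30 to 1.22). Pfkfb2 had 79, 80, 83 and 62 counts at the weaker promoter and 778, 955, 1165 and 1129 at the stronger one, a change of 0.61 (0.10 to 1.13). Kcnd3, a subunit of the channel that carries the transient outward potassium current, had 68, 64, 61 and 56 counts at the weaker promoter and 225, 220, 301 and 294 at the stronger one, a change of 0.61 (0.01 to 1.22). Ppfibp2, a liprin, differed by 0.74 (0.12 to 1.36) and Phactr3, a regulator of phosphatase and actin, by 0.74 (0.08 to 1.40). Pfkfb2, Kcnd3 and Phactr3 were not apart with loess scaling.

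**Figure D3:**
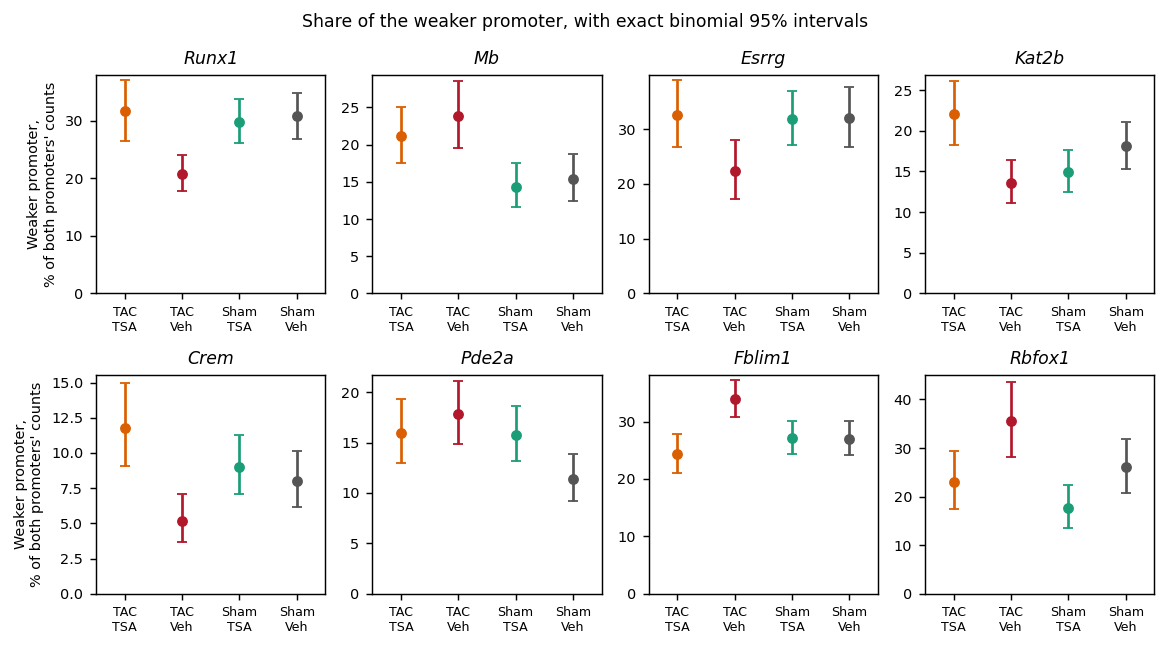
Weaker promoter's count as a percentage of both promoters' counts (y axis) in each of the 4 libraries (x axis, 1 library each) for 8 genes; bars are exact binomial 95% intervals for counting error. TAC Veh is the lowest library for Runx1 (20.8%), Esrrg (22.3%), Kat2b (13.6%) and Crem (5.16%), and the highest for Mb (23.8%), Pde2a (17.9%), Fblim1 (34.0%) and Rbfox1 (35.6%).

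For the drug in the overloaded ventricle, TAC TSA was set against TAC Veh. The weaker promoter was relatively higher in 33 genes, with a background of 2.74% over the 1644 genes, and lower in 2, with a background of 0.487%. These are 8.42% and 0.51% of the 392 genes. The median change was 0.18, and 297 genes (75.8%) lay above 0. Over all 1644 genes the median was 0.0078, and over the genes under 2-fold, whose windows may overlap, it was 0.0007. The change was larger where the weaker promoter had fewer counts, with a median of 0.21 below a mean of 100 (n = 166), 0.18 from 100 to 200 (n = 169) and 0.08 from 200 (n = 57). With loess scaling the median was 0.01, with 10 genes higher and 9 lower, and 10 of the 33 genes remained. The receptor background was 0.617% in TAC TSA and 0.460% in TAC Veh; its part in the median was not tested. With the receptor median subtracted from every count the median change was 0.12.

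The 10 genes that remained with loess scaling were Crem, Apbb2, Kat2b, Runx1, Atp2c1, Rhobtb1, Bri3, Mitf, Tfeb and Patj. Crem had the largest change, 1.29 (0.64 to 1.96), with a level change of 1.00 (0.37 to 1.64) at the weaker promoter and −0.30 (−0.47 to −0.12) at the stronger one. With NM_001110854 in place of the weakest promoter, the change in Crem was 0.09 (−0.24 to 0.43) and not apart. Runx1 differed by 0.82 (0.37 to 1.27), and here the stronger promoter was lower by log2 −0.99 (−1.22 to −0.76), the weaker by −0.17 (−0.56 to 0.21). Kat2b had 98, 95, 115 and 131 counts at the weaker promoter (NM_001190846) in TAC TSA, TAC Veh, Sham TSA and Sham Veh, and 347, 603, 656 and 594 at the stronger one (NM_020005). The change in use in TAC TSA over TAC Veh was 0.84 (0.37 to 1.31), with a level change after scaling of 0.38 (−0.04 to 0.80) at the weaker and −0.46 (−0.66 to −0.27) at the stronger promoter. Apbb2, which binds the amyloid precursor protein, had 168, 154, 217 and 210 counts at the weaker promoter and 434, 701, 664 and 721 at the stronger one, a change of 0.82 (0.45 to 1.19). Atp2c1, the calcium and manganese pump of the Golgi, had 189, 149, 265 and 224 counts at the weaker promoter and 462, 602, 689 and 630 at the stronger one. Its change was 0.72 (0.36 to 1.09), and TAC Veh had the lowest count of the weaker promoter. Rhobtb1 had 71, 52, 56 and 67 counts at the weaker promoter and differed by 0.90 (0.34 to 1.47).

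Both Mitf and Tfeb, related transcription factors of lysosome and autophagy genes, were among the 10 and were paired here after their values were seen. Mitf had 103 counts in TAC TSA, 86 in TAC Veh, 109 in Sham TSA and 113 in Sham Veh at the weaker promoter (NM_008601) and 345, 505, 583 and 496 at the stronger one (NM_001113198), a change of 0.81 (0.33 to 1.29). A middle Mitf promoter (NM_001178049) diverged further, with 178, 110, 228 and 185 counts. Relative to the stronger promoter it differed by 1.24 (0.84 to 1.65) in TAC TSA over TAC Veh and by −0.78 (−1.18 to −0.38) in TAC Veh over Sham Veh, since TAC Veh had its lowest count. Tfeb had 161, 141, 182 and 186 counts at the weaker promoter and 375, 537, 581 and 556 at the stronger one, a change of 0.71 (0.32 to 1.10). Bri3 differed by 0.85 (0.34 to 1.37), and Patj, a scaffold of tight junctions, by 0.81 (0.22 to 1.40). Of the genes lower in TAC Veh over Sham Veh, Esrrg (0.76, 0.15 to 1.36), St6gal1 (0.70, 0.14 to 1.25) and Tbc1d5 (0.91, 0.28 to 1.55) were also among the 33. These comparisons share the TAC Veh library, so a high or low value there enters both with opposite sign.

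The 2 lower genes were Fblim1 and Rbfox1, both also apart with loess scaling. Fblim1 encodes migfilin, which links filamin to cell adhesions, and had 159 counts in TAC TSA, 285 in TAC Veh, 256 in Sham TSA and 240 in Sham Veh at the weaker promoter (NM_133754). Its stronger promoter (NM_001163256) had 496, 553, 689 and 648 counts, and the change was −0.68 (−1.03 to −0.35). Rbfox1, a splicing regulator of heart, muscle and brain, had 47, 57, 53 and 67 counts at the weaker promoter (NM_021477) and 157, 103, 247 and 190 at the stronger one (NM_183188). The stronger promoter was lowest in TAC Veh although TAC TSA had the smaller depth. The change in use was −0.89 (−1.59 to −0.19), with a level change of 0.94 (0.58 to 1.32) at the stronger promoter.

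**Figure D4:**
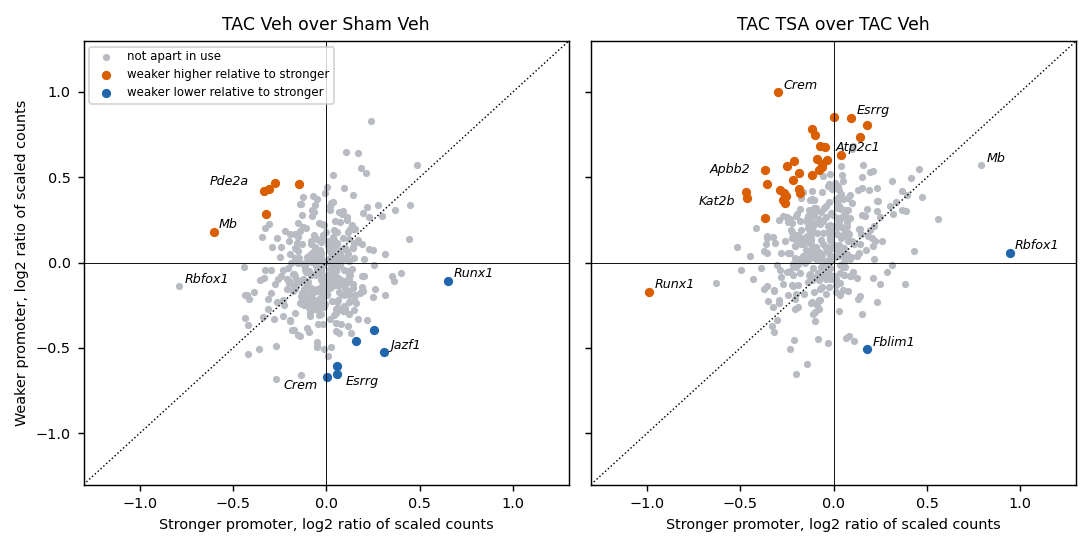
Log2 ratio of library-scaled counts at the weaker promoter (y axis) against the stronger promoter (x axis) for 392 genes, in TAC Veh over Sham Veh (left) and TAC TSA over TAC Veh (right); the dotted diagonal is equal change and coloured points are apart in use. Runx1 and Rbfox1 lie along the x axis in both panels, with level changes at the stronger promoter of 0.65 and −0.79 on the left and −0.99 and 0.94 on the right, whereas Crem and Esrrg lie along the y axis.

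The level of single promoters was compared in the same pairs. In TAC TSA over TAC Veh, 15 weaker promoters were higher and 2 lower, and 2 stronger promoters were higher and 2 lower. The background over all 20788 distinct promoters of this count was 2.28% higher and 0.342% lower. Of the 33 genes with relatively higher weaker promoter, 13 had a weaker promoter that was itself apart and 1, Runx1, a stronger one. In TAC Veh over Sham Veh, 3 weaker promoters were higher and 5 lower, and 1 stronger promoter was higher and 2 lower, with a background of 0.683% higher and 0.596% lower. In TAC TSA over Sham TSA, 15 weaker promoters were higher and 2 lower, with a background of 2.76% and 0.231%. In Sham TSA over Sham Veh, 3 weaker promoters were higher and 2 lower, with a background of 0.298% and 0.303%.

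For pressure overload under the drug, TAC TSA was set against Sham TSA. The weaker promoter was relatively higher in 24 genes, with a background of 1.82% over the 1644 genes, and lower in 0, with a background of 0.122%. The 24 genes are 6.12% of the 392. The median change was 0.17, and it was again larger at low counts, with 0.24 below a mean of 100 and 0.06 from 200. Over all 1644 genes the median was 0.0094, and over the genes under 2-fold, whose windows may overlap, it was 0.0022. With loess scaling none of the 24 remained, 12 genes were lower and the median was −0.06, so the direction of the count depends on that scaling. The receptor background was 0.617% in TAC TSA and 0.388% in Sham TSA; its part in the count was not tested. Among the 24, Rhobtb1 differed by 0.85 (0.29 to 1.41) and Kat2b by 0.69 (0.24 to 1.13). Mrtfb, a coactivator of serum response factor, had 98 counts in TAC TSA, 105 in TAC Veh, 86 in Sham TSA and 85 in Sham Veh at the weaker promoter and 440, 593, 665 and 574 at the stronger one. Its change was 0.78 (0.31 to 1.26), with the higher weaker counts in both TAC libraries. Psen2, a presenilin, differed by 0.72 (0.29 to 1.15), Iffo2, of the intermediate filament family, by 0.78 (0.26 to 1.30), and Inpp4a, a phosphoinositide phosphatase, by 0.69 (0.25 to 1.13). Mb differed by 0.68 (0.20 to 1.17) and was the gene apart in the same direction in both comparisons of TAC with sham. Under the drug its weaker promoter was higher by log2 0.76 (0.33 to 1.21) and the stronger one differed by 0.08 (−0.11 to 0.28), and with loess scaling the change in use was 0.34 and not apart.

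For the drug in the sham ventricle, Sham TSA was set against Sham Veh. The weaker promoter was relatively higher in 2 genes, with a background of 0.304%, and lower in 3, with a background of 0.365%. These are 0.51% and 0.765% of the 392 genes, and the median change was −0.02. Orc2, a subunit of the replication origin recognition complex, had 81 counts in TAC TSA, 91 in TAC Veh, 114 in Sham TSA and 68 in Sham Veh at the weaker promoter, and 298, 340, 389 and 354 at the stronger one. Its change was 0.61 (0.11 to 1.11). Bdnf, a neurotrophin known for its many promoters, had 56, 75, 65 and 45 counts at the weakest of 6 promoters and 169, 259, 215 and 234 at the strongest, a change of 0.65 (0.01 to 1.30). A neighbouring Bdnf promoter in strength (NM_001048139) had nearly the same counts, 60, 80, 66 and 48, lowest in Sham Veh as well. The windows of both may overlap and share reads, so it may not be a separate measurement. Lower were Nin, the centrosome protein ninein, with 86, 104, 105 and 162 counts at the weaker promoter and a change of −0.60 (−1.02 to −0.19), Rbfox1 with −0.72 (−1.34 to −0.10), and 1700001C19Rik with −0.59 (−1.16 to −0.02). Rbfox1 was the gene apart in the same direction in both comparisons of TSA with vehicle.

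**Figure D5:**
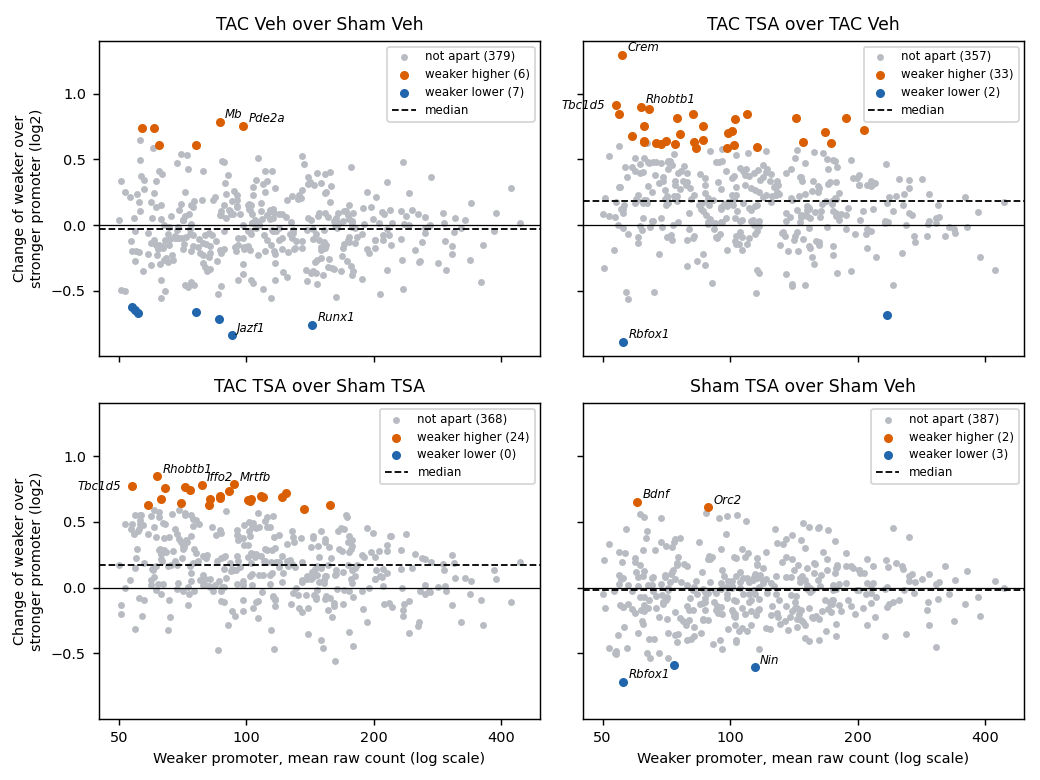
Log2 change of the ratio of weaker to stronger promoter (y axis) against the mean raw count of the weaker promoter (x axis, log scale) for 392 genes in each pair of libraries; the dashed line is the median. The medians are −0.03, 0.18, 0.17 and −0.02 in the order of the panels, and coloured points, the genes apart, lie mostly below a mean of 200.

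Gene groups that fit the tissue and treatment were counted next to the 14.8% of all 392 genes that were apart in some pair. Of 53 transcription factors and nuclear receptors, 11 belonged to the 392 and 4 were apart (Crem, Esrrg, Mitf and Runx1); their median change was −0.18 in TAC Veh over Sham Veh and 0.20 in TAC TSA over TAC Veh, next to −0.03 and 0.18 for all. Tcf7l2, an effector of Wnt signalling, differed by −0.02 (−0.36 to 0.33) in TAC Veh over Sham Veh, and Hdac7, a histone deacetylase, by −0.10 (−0.50 to 0.30). Pparg, the nuclear receptor of fat storage, was singled out after its values were seen, with 58 counts in TAC TSA, 66 in TAC Veh, 109 in Sham TSA and 111 in Sham Veh at the weaker promoter. Both TAC libraries lay below both sham libraries there, while the change in use of −0.52 (−1.01 to −0.04) in TAC Veh over Sham Veh did not reach 1.5-fold. Of 54 genes of the sarcomere, Z-disc and cytoskeleton, 7 belonged and 0 were apart. Among them, Plec differed by −0.05 (−0.29 to 0.20) in TAC Veh over Sham Veh and Ablim1, an actin-binding LIM protein, by −0.11 (−0.43 to 0.21). Of 34 genes of cyclic nucleotide and kinase signalling, 7 belonged and 0 were apart. Akap1 anchors protein kinase A at mitochondria, and its weaker promoter (NR_104310) had 240 counts in TAC TSA, 214 in TAC Veh, 352 in Sham TSA and 254 in Sham Veh. Its stronger promoter (NM_001042541) had 575, 652, 856 and 806 counts. The change in use was 0.35 (0.03 to 0.67) in TAC TSA over TAC Veh and 0.38 (0.11 to 0.66) in Sham TSA over Sham Veh, both short of 1.5-fold. Of 42 genes of energy metabolism, 5 belonged and Pfkfb2 was apart. Hk1, the hexokinase that starts glycolysis, differed by 0.12 (−0.33 to 0.57) in TAC Veh over Sham Veh. Of 40 genes of calcium handling and ion channels, Kcnd3 was the single member. Of 30 growth factors and receptors, 3 belonged and Bdnf was apart; Vegfa, the vascular growth factor, had 267, 251, 359 and 301 counts at the weaker promoter and differed by −0.12 (−0.41 to 0.18) in TAC Veh over Sham Veh. Of 17 imprinted genes known for several promoters, 3 belonged. Grb10, an adaptor of the insulin receptor, was apart with 0.64 (0.05 to 1.24) in TAC TSA over TAC Veh, whereas Gnas, which makes the stimulatory G protein subunit, differed by 0.48 (−0.09 to 1.06). Of 42 textbook cases of alternative promoters in heart or muscle, 7 belonged, with Esrrg, Mitf and Runx1 apart. Esrrg, Mitf and Runx1 were already counted among the transcription factors, as were Pparg and Tead1, so these lists are not independent. No gene of the matrix, leukocyte, endothelial or cardiomyocyte marker lists belonged.

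All 4 libraries entered an additive model of surgery and drug, whose 1 residual degree of freedom is their interaction. By the edgeR quasi-likelihood test of differential promoter use, Benjamini-Hochberg adjusted over 1814 genes, 0 of the 392 genes passed an adjusted p of 0.05 for surgery and 0 for the drug, with a background of 0% in both. At an unadjusted p under 0.05 there were 16 of the 392 genes for surgery and 17 for the drug, beside 36 and 31 of all 1814 genes, and limma's test on the same design found 0 at the adjusted threshold. For the level of single promoters, 0 of the 784 weaker and stronger promoters passed for surgery, with a background of 0.0119% higher and 0.0119% lower, and 0 for the drug, with a background of 0.207% higher and 0.00795% lower. The unadjusted counts among the 784 were 15 higher and 36 lower for surgery, beside 1297 higher and 1057 lower of all 25143 promoters. For the drug they were 26 higher and 14 lower, beside 712 higher and 383 lower of all. DESeq2 also found 0 for each. An effect of surgery that differs between vehicle and drug enters this model as residual spread.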

How the data were processed

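Raw read counts per RefSeq promoter are as deposited by the authors, whole numbers without normalisation. Build mm9, BWA 0.5.9 and MACS 1.4.1 are named in the submitters' processing notes. How wide the promoter window was, what counted the reads and how duplicates were treated is not stated in these sources. All columns of samples were used, and the deposited lists of regions were not used here. Of 31594 IDs, 31115 (98.5%) were matched to a gene by RefSeq's GRCm38.p6 table, used for names and for the starts and sequences shown; 479 IDs without a match, with 1.11% of the counts, were dropped.

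Distinct promoters (25946) were formed from IDs with different counts, and those averaging 10 counts or more (25143) were fitted. Ratios of promoter ratios carry exact conditional 95% intervals, and levels, scaled with edgeR's TMM factors, carry Clopper-Pearson conditional intervals. Intervals cover counting error only, since PCR reads without molecular identifiers are not independent molecules. Fits used edgeR 4.0.16, limma 3.58.1 and DESeq2 1.42.0 in R 4.3.3, and Python 3.11.15 with scipy 1.17.1; the methods were tested on simulated data. Alternatives were loess scaling (span 0.3, pseudocount 2), subtraction of the receptor background, a weaker promoter of at least 150 and the nearest promoter at least 2-fold below the strongest, and, for the additive model, DESeq2 size factors, no count filter, limma and DESeq2.

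Most genes were named by a rule: per comparison the up to 6 genes on each side with the interval bound farthest from 0, list members that were apart and those of highest count, the 5 widest ratios, the 5 with most promoters, those at the 2-fold limit, and those whose leading promoter changed. Others were named by their values: all genes apart in TAC Veh over Sham Veh, and those that remained with loess scaling in TAC TSA over TAC Veh. Genes that changed with the processing were also named. Genes and lists were chosen with earlier results of these data known.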

Additional observations from a re-analysis of the deposited data

Results flagged for a closer look

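In 2 genes the effect of pressure overload on promoter use had opposite signs under vehicle and under TSA, with both intervals excluding 0. The difference itself was not tested, because each group has 1 library. Under vehicle, the interval for overload lay above 0 in 20 of the 392 genes and below 0 in 23. Under TSA it lay above 0 in 49 and below 0 in 6. Opposite signs can thus meet in a gene by coincidence, and whether 2 genes exceed that number was not tested. Kat2b, the histone acetyltransferase, differed by −0.49 (−0.92 to −0.06) in TAC Veh over Sham Veh and by 0.69 (0.24 to 1.13) in TAC TSA over Sham TSA. Tbc1d5, the Rab7-inactivating protein, differed by −0.62 (−1.23 to −0.02) in TAC Veh over Sham Veh and by 0.77 (0.16 to 1.39) in TAC TSA over Sham TSA. With loess scaling the second change was 0.41 for Kat2b and 0.28 for Tbc1d5, neither of them apart.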

How the results depend on the processing

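Counts of genes apart are given as higher and lower for the weaker promoter relative to the stronger one. In TAC Veh over Sham Veh, 6 higher and 7 lower became 3 and 11 with loess scaling; the lower count was 15 with background subtracted; and with a weaker promoter of at least 150 (n = 120) the counts were 0 and 0. In TAC TSA over TAC Veh, 33 and 2 became 10 and 9 with loess scaling; the lower count was 8 with background subtracted; and the counts at 150 were 4 and 1. In TAC TSA over Sham TSA, 24 and 0 became 0 and 12 with loess scaling; the lower count was 4 with background subtracted; and the higher count was 1 at 150. In Sham TSA over Sham Veh, 2 and 3 became 4 and 1 with loess scaling; the higher count was 7 with background subtracted; and the counts at 150 were 0 and 0. The restriction to 150 leaves fewer genes; for the other settings the cause was not tested. In the additive model, edgeR with DESeq2 size factors called 1 higher promoter for the drug, the stronger one of Rbfox1 (log2 0.61, adjusted p = 0.0477), and 1 lower, the stronger one of Runx1 (log2 −0.43, adjusted p = 0.0477). This Runx1 promoter was lower with TSA in TAC but not in sham, so its value averages unlike differences. With 1 residual degree of freedom and 1 library per group, these p-values do not measure the spread between animals. Of the 13 changes that were apart in genes with a promoter between both, 5 remained apart with the nearest promoter at least 2-fold below the strongest. This promoter took the place of the weakest. The exchange turned Pik3cd in TAC TSA over Sham TSA to −0.15, and 7 were no longer apart: Crem (0.09), Eps8 (0.07) and Fbxw7 (0.27) in TAC TSA over TAC Veh, Crem (−0.21) and Phactr3 (0.23) in TAC Veh over Sham Veh, Mitf (0.40) in TAC TSA over Sham TSA and Bdnf (0.58) in Sham TSA over Sham Veh. Of all single changes that were apart, 25 remained apart with loess scaling and 52 did not. With background subtracted 63 did and 14 did not. No paired analysis was possible because each group has 1 library. Depth limits the weaker promoters, whose lowest counts were 37 in TAC TSA, 36 in TAC Veh, 48 in Sham TSA and 45 in Sham Veh.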
